A study of Mus musculus with 6 samples.

Results

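The LIN28, IMP and HMGA genes are called oncofetal because they are active in the embryo, largely silent in adult tissues and active again in many tumours. The set was a list of 8 mouse genes, and a listed gene was a member where a probe set of the array carried its symbol and no other in the platform's annotation. By this rule 5 of the 8 genes were members, of 22180 genes measured in all: Lin28a, Lin28b, Trim71, Igf2bp3 and Hmga2, each with 1 probe set. The probe set of Igf2bp1 carried a second symbol, so that its values belong to no single gene, and Igf2bp2 and Hmga1 were not analysed here. The list was chosen by values measured on these same arrays, because Lin28b differed between the days in the direction opposite to that of other core pluripotency genes. The values of the members are therefore a description, and no test is given for them.

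The cells were mouse embryonic stem cells (ESCs) infected with a lentivirus for 1 of 3 short hairpin RNAs (shRNAs): one against Chd4, one against Mbd3, and a control. Both targets belong to the NuRD complex, a chromatin remodeler and histone deacetylase: Chd4 is its motor subunit, and Mbd3 a core subunit that holds it together. RNA was taken at day 4, after the cells had been re-aggregated in low-adhesion wells in a KSR medium for neural differentiation, and at day 0, from ESCs on gelatin in serum medium with leukemia inhibitory factor. The 6 groups were Chd4-knockdown, Mbd3-knockdown and control cells at day 4, and the same 3 lines at day 0. Each group was read on 1 Mouse Gene 2.0 ST array, so replicate error is unknown for every difference given here, and precision is limited by the number of arrays. The number of hairpins per target, any selection of infected cells and the parental ESC line are not given in the sources used here.

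LIN28A and LIN28B are RNA-binding proteins that bind precursors of the let-7 microRNAs and block their maturation. Mature let-7 in turn represses the mRNAs of Lin28a, Lin28b, Trim71, Hmga2 and the Igf2bp (IMP) family, so that the genes and the microRNA hold each other in check. In the embryo this circuit is known for its part in developmental timing, and it changes as pluripotent cells become neural progenitors and later mature cells.

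Values are the deposited intensities on a linear scale, and differences are of their log2 values, with no further scaling. The array medians over all probe sets lay between 39.6 and 41.4, and a value under 41.4 is treated here as too dim to order. A gene entered a comparison where the brighter array of the pair reached that array's median, and 2-fold, a log2 difference of 1, was the size at which genes were counted. As a check of the labels, Chd4 had an intensity of 727 in Chd4-knockdown cells against 1021 in control cells at day 4, and of 290 in Chd4-knockdown cells against 973 in control cells at day 0. Mbd3 had 138 in Mbd3-knockdown cells against 183 in control cells at day 4, and 92.8 in Mbd3-knockdown cells against 216 in control cells at day 0. Both targets were thus nearer to the control level at day 4, at 71.3% of control for Chd4 and 75.5% for Mbd3, than at day 0, at 29.8% and 43.0%.

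All 14 markers of the labelled cell type, ESCs, among them Pou5f1, Nanog and Sox2, lay above 41.4 on every array. At day 4 their summed intensity was 13529 in Chd4-knockdown, 11976 in Mbd3-knockdown and 6017 in control cells. At day 0 it was 17613 in Chd4-knockdown, 16222 in Mbd3-knockdown and 18319 in control cells. The summed intensity of 13 neural progenitor markers at day 4 was 1009 in Chd4-knockdown, 1504 in Mbd3-knockdown and 7995 in control cells, and at day 0 it was 576, 590 and 656 in the same order of lines. Of these 13, 4 lay above 41.4 on every array, and 9 lay under it in both knockdowns at day 0. The day 0 sums of this list thus hold many dim values and are not ordered here. The control line at day 4 therefore stood apart from the other 5 arrays on both lists, in the same direction as Lin28b, Igf2bp3 and Hmga2 below for the progenitor markers. The part of this difference in cell state in the members' values was not tested, and in bulk RNA fewer cells of a type and less RNA per cell cannot be told apart.

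Lin28b, Igf2bp3 and Hmga2 shared a pattern: each was brightest in control cells at day 4. Lin28b, the LIN28 paralog that acts on let-7 mainly in the nucleus, had an intensity of 72.4 in Chd4-knockdown, 103 in Mbd3-knockdown and 219 in control cells at day 4. At day 0 Lin28b had 39.2 in Chd4-knockdown, 51.3 in Mbd3-knockdown and 62.3 in control cells. All 3 lines were higher at day 4 than any line at day 0, and at both days the order was control over Mbd3 knockdown over Chd4 knockdown. The lowest of these values, in Chd4-knockdown cells at day 0, lay under 41.4, so a difference against it is a bound. From the highest to the lowest array Lin28b spanned 2.48 on the log2 scale.

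Igf2bp3, also called IMP3, binds mRNAs in the cytoplasm and affects their stability and translation. Its intensity at day 4 was 642 in Chd4-knockdown, 682 in Mbd3-knockdown and 2030 in control cells. Its intensity at day 0 was 486 in Chd4-knockdown, 304 in Mbd3-knockdown and 609 in control cells. The 2 knockdowns at day 4 lay close to the control level of day 0, and the Mbd3 knockdown at day 0 was the lowest array. The span over the arrays was 2.74 on the log2 scale.

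Hmga2 encodes an AT-hook protein that binds the minor groove of AT-rich DNA and is known for its role in young neural stem cells. It had an intensity of 173 in Chd4-knockdown, 179 in Mbd3-knockdown and 830 in control cells at day 4. It had 95.3 in Chd4-knockdown, 91.3 in Mbd3-knockdown and 107 in control cells at day 0. The day 0 arrays lay within 1.17-fold of each other, and the control array of day 4 stood far above the other 5. Its span of 3.18 on the log2 scale was the widest of the 5 members.

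Lin28a and Trim71 varied less. Lin28a, the LIN28 paralog found mainly in the cytoplasm and a known mark of ESCs, had 535 in Chd4-knockdown, 507 in Mbd3-knockdown and 639 in control cells at day 4, and 456 in Chd4-knockdown, 402 in Mbd3-knockdown and 551 in control cells at day 0. Lin28a thus shared with Lin28b the control array of day 4 as its highest, but spanned 0.67 on the log2 scale. Trim71, the mouse LIN-41, is a ubiquitin ligase and mRNA repressor that was first studied as a let-7 target in worms. Trim71 had 470 in Chd4-knockdown, 433 in Mbd3-knockdown and 307 in control cells at day 4, and 567 in Chd4-knockdown, 387 in Mbd3-knockdown and 533 in control cells at day 0. Its lowest array was control at day 4, where the other 4 members were highest, and it spanned 0.89 on the log2 scale.

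**Figure D1:**
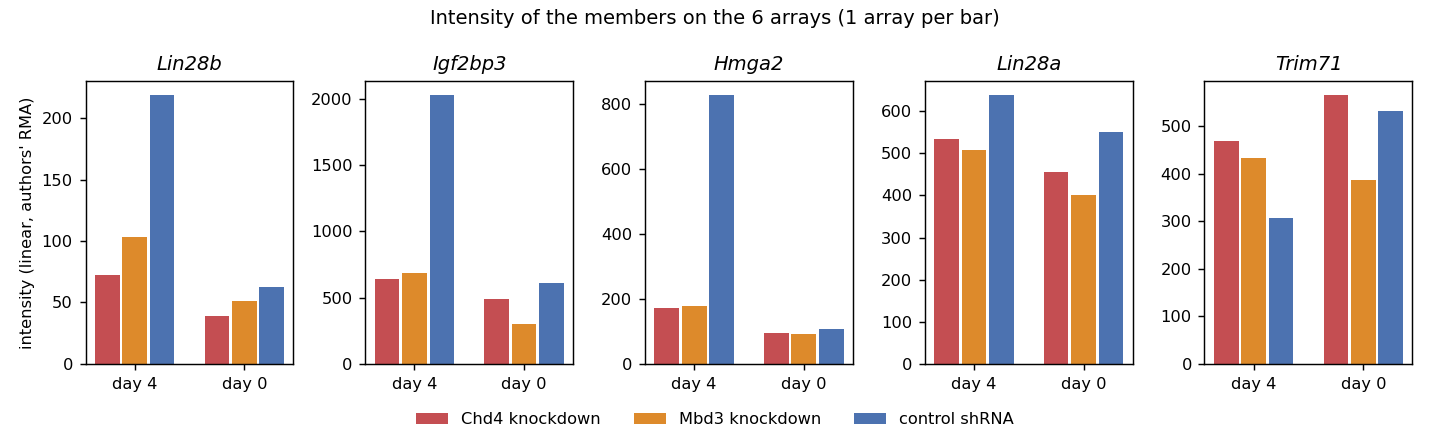
Intensity (linear scale, y axes starting at 0) of the 5 members, with 1 bar per array, at day 4 and day 0 in Chd4-knockdown, Mbd3-knockdown and control cells. Lin28b, Igf2bp3 and Hmga2 are highest in control cells at day 4, at 219, 2030 and 830, and Trim71 is lowest there, at 307.

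The promoters of Lin28b, Igf2bp3 and Hmga2 are shown because these genes moved together over the arrays. Each line gives the 250 bases before the gene's start, 5′ to 3′ on the gene's strand, from RefSeq on build GRCm38.p6. Capitals mark matches on either strand to the E-box, which has the letters CACGTG, to the CCAAT box, and to the GC box, which has the letters GGGCGG. A match on the opposite strand appears as its reverse complement.
Lin28b promoter, chr10:45470202-45470451, minus strand: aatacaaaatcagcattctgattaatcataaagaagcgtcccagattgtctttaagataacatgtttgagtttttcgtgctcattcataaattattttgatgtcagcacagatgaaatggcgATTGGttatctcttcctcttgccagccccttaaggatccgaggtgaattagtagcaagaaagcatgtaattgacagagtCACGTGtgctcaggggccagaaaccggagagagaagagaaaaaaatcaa
Igf2bp3 promoter, chr6:49214955-49215204, minus strand: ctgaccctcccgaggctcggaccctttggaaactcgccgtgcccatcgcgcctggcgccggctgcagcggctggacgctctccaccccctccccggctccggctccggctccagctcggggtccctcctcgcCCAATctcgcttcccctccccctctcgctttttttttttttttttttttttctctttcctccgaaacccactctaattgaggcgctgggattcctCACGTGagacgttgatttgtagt
Hmga2 promoter, chr10:120476470-120476719, minus strand: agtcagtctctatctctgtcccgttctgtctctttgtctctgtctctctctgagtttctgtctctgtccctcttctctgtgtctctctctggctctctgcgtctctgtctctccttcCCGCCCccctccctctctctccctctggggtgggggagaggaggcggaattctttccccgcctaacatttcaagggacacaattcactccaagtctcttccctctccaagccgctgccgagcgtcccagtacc

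The promoters of Lin28b and Igf2bp3 held 1 E-box each, whose first base lay 49 and 23 bases before the start, and 1 CCAAT box each, at 128 and 118 bases. The Hmga2 promoter held neither and had 1 GC box, at 133 bases. Of 32851 RefSeq promoters of the same length, 6.02% held the E-box, 33.8% the CCAAT box and 32.7% the GC box. In the other 2 members, Trim71 held a GC box at 12 bases and Lin28a the SOX core CATTGT at 96 bases, a motif of 10.7% of promoters. The octamer ATGCAAAT, held by 1.6% of promoters, and the TATA sequence TATAAA, held by 12.4%, had no match in the 5 windows. Matches within a promoter did not overlap. The Lin28b window had a GC content of 39.2%, against a median of 52.4% over all promoters, and the other 4 ranged from 56.4% in Hmga2 to 62.8% in Trim71. These matches are a description of the letters in the windows and say nothing about binding.

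Day 4 was set against day 0 within each line, in 3 pairs of arrays that share none. In control cells, 3 of the 5 members passed 2-fold upward at day 4, and 8.13% of the 13831 genes compared did. Hmga2 was 7.78-fold higher, which is rank 58 from the highest of all genes compared. Lin28b was 3.52-fold and Igf2bp3 3.33-fold higher, at ranks 345 and 373. Lin28a had a log2 difference of 0.21, and Trim71 stood at 57.5% of its day 0 level. The median of the members was 1.74, beside 0.0027 over all genes compared.

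The same step was smaller in both knockdown lines for Hmga2, Lin28b and Igf2bp3. In Chd4-knockdown cells 0 of the 5 members passed 2-fold upward, and 1.7% of 13406 genes did. Lin28b was at least 1.75-fold higher there, against 41.4 in place of its dim day 0 value, and Hmga2 was 1.81-fold and Igf2bp3 1.32-fold higher. In Mbd3-knockdown cells 2 of the 5 members passed 2-fold, and 1.6% of 13348 genes did: Igf2bp3 was 2.24-fold and Lin28b 2.01-fold higher, while Hmga2 was just under, at 1.96-fold. With the arrays centred on their medians Lin28b too was under 2-fold, so that 1 member passed. With 16 subtracted from each intensity, 3 members passed in Mbd3-knockdown cells, Hmga2 among them at 1.12 in log2, and 1 in Chd4-knockdown cells, Lin28b at 1.28. The medians of the members were 0.40 in Chd4-knockdown and 0.97 in Mbd3-knockdown cells, beside -0.0098 and -0.0289 over all genes compared.

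Set against the log2 difference between the days in control cells, the knockdown lines kept unlike shares of it from gene to gene. Hmga2 kept 28.9% of it in Chd4-knockdown and 32.9% in Mbd3-knockdown cells. Igf2bp3 kept 23.1% in Chd4-knockdown and 67.0% in Mbd3-knockdown cells, and its low Mbd3-knockdown value at day 0 enters that larger share. Lin28b kept 48.8% and 55.7% in the same lines, the first with its dim day 0 value as measured. Lin28a had a day difference of 0.23 in Chd4-knockdown and 0.34 in Mbd3-knockdown cells, no smaller than the 0.21 of control cells. The difference in Trim71 was -0.27 in Chd4-knockdown, 0.16 in Mbd3-knockdown and -0.80 in control cells.

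**Figure D2:**
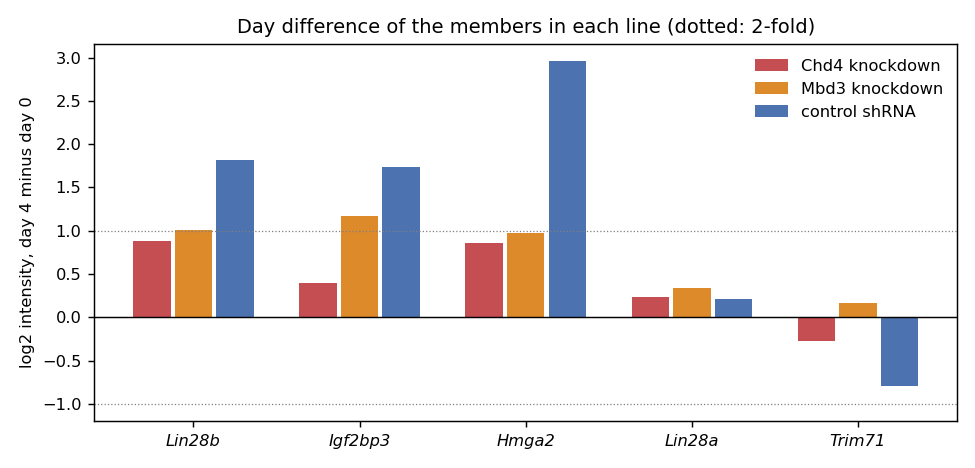
Log2 intensity at day 4 minus day 0 for each member, with 1 bar per line (Chd4 knockdown, Mbd3 knockdown, control shRNA) and dotted lines at 2-fold. The control bar is the tallest for Hmga2 (2.96), Lin28b (1.81) and Igf2bp3 (1.74), and Trim71 lies below 0 in control (-0.80) and Chd4-knockdown cells (-0.27).

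**Figure D3:**
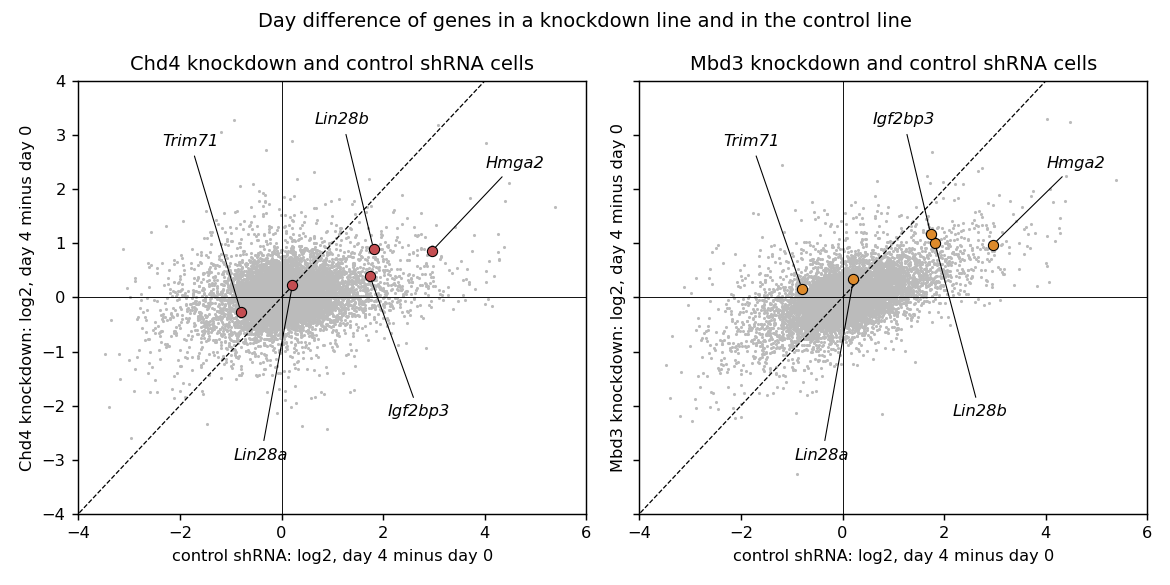
Day difference (log2, day 4 minus day 0) in Chd4-knockdown (left) and Mbd3-knockdown cells (right) on the y axis against that in control cells on the x axis, with 1 grey point per gene whose mean log2 value reached the median over all probe sets, and the members in colour. Below the dashed line of equal differences lie Hmga2, Lin28b and Igf2bp3, with x values of 2.96, 1.81 and 1.74.

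At day 4 both knockdowns were set against the control array of that day, which they share, so their differences are not independent of each other. Hmga2 stood at 20.8% of control in Chd4-knockdown and at 21.6% in Mbd3-knockdown cells. These are log2 differences of -2.26 and -2.21, at ranks 124 of 13733 and 74 of 13588 genes from the lowest. Igf2bp3 stood at 31.6% of control in Chd4-knockdown and 33.6% in Mbd3-knockdown cells. Lin28b stood at 33.0% and 47.2% of control in the same lines.

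In each knockdown 3 of the 5 members were thus at least 2-fold lower than control at day 4, and 6.64% of all genes compared were in Chd4-knockdown and 4.89% in Mbd3-knockdown cells. Lin28a was at 83.6% of control in Chd4-knockdown and 79.2% in Mbd3-knockdown cells. Trim71 lay on the other side, at 153% and 141% of control. The medians of the members were -1.60 and -1.08, beside -0.0394 and -0.0566 over all genes compared.

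At day 0 Hmga2, Igf2bp3 and Lin28b were nearer to control in both knockdowns than at day 4, while Lin28a was not. In Chd4-knockdown cells 0 of the 5 members passed 2-fold downward, and 0.565% of 13446 genes did. Lin28b had a log2 difference of -0.59 or below there, with its own value taken as 41.4, and Igf2bp3 was at 79.8%, Lin28a at 82.7%, Hmga2 at 89.4% and Trim71 at 106% of control. In Mbd3-knockdown cells 1 of the 5 members passed, and 0.314% of 13389 genes did. That member was Igf2bp3, with a log2 difference of -1.0007 that lies at the threshold itself, at rank 42 from the lowest. With the arrays centred on their medians it no longer passed. Lin28a, Trim71, Lin28b and Hmga2 were at 72.9%, 72.6%, 82.4% and 85.6% of control in Mbd3-knockdown cells. The medians of the members were -0.27 in Chd4-knockdown and -0.46 in Mbd3-knockdown cells, beside -0.0096 and -0.0023 over all genes compared.

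The knockdowns were also set against each other, in pairs that leave out the control arrays. None of the 5 members differed by 2-fold between Chd4-knockdown and Mbd3-knockdown cells at either day, a size that 1.05% of genes reached at day 0 and 1.1% at day 4. At day 0 Igf2bp3 was 1.60-fold and Trim71 1.46-fold higher in Chd4-knockdown than in Mbd3-knockdown cells, and Lin28b was at least 1.24-fold lower. At day 4 Lin28b was 1.43-fold lower in Chd4-knockdown cells, with log2 differences of -0.09 for Igf2bp3, -0.06 for Hmga2, 0.08 for Lin28a and 0.12 for Trim71. The medians were 0.18 at day 0 and -0.06 at day 4, beside -0.003 and 0.0054 over all genes compared. With 1 array per line, these values show neither that the knockdowns differ nor that they act alike.

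Genes with the most similar profiles were found by the root mean square difference between log2 values over the 6 arrays, each profile centred on its own mean, among 13036 genes. For Lin28b the nearest 5 were Dbn1, the actin-binding drebrin of neurites, at 0.14, 1700025G04Rik at 0.15, Six5, a homeobox factor, at 0.15, Tmem123, a membrane protein, at 0.16, and Usp3, a histone deubiquitinase, at 0.17. Dbn1 had 185 in Chd4-knockdown, 231 in Mbd3-knockdown and 542 in control cells at day 4, and 113, 111 and 148 in the same lines at day 0. For Igf2bp3 the nearest 3 were Ncam1, the neural cell adhesion molecule, at 0.14, Map2k6, a p38 kinase kinase, at 0.16, and Sox9, a factor of neural stem cells and glia, at 0.19. For Hmga2 they were Gpm6b, a neural membrane glycoprotein, at 0.095, Cdh6, a cadherin, at 0.13, and Fat3, an atypical cadherin, at 0.14. At day 0 Fat3 lay under 41.4 in every line, Gpm6b in both knockdowns and Sox9 in the Mbd3 knockdown. Lin28b lay under it in the Chd4 knockdown at day 0. The distances of these genes thus rest partly on dim values. The members lay further from one another, at 0.36 for Lin28b with Igf2bp3, 0.41 for Lin28b with Hmga2 and 0.40 for Igf2bp3 with Hmga2.

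Precursors of the let-7 family are the main substrate of LIN28. Of the mature sequences, 4 are shown because LIN28 blocks their formation and they are known to repress the members. They are from RefSeq on build GRCm38.p6, and capitals mark the seed, bases 2 to 8, which pairs with targets. The let-7f gene Mirlet7f-1 is the family gene that differed most between the days in control cells, and let-7i differs from let-7a at the largest number of positions, 4 of 22.
mmu-let-7a-5p: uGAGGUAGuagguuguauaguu
mmu-let-7f-5p: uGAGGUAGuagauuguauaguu
mmu-let-7g-5p: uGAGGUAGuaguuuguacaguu
mmu-let-7i-5p: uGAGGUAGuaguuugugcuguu

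All 9 distinct mature sequences of the measured let-7 and miR-98 genes shared the seed GAGGUAG. The array reads transcripts of the microRNA genes, not the mature microRNAs whose formation LIN28 blocks, so let-7 activity was not measured. Of 17 microRNA genes measured, of the let-7, miR-125 and miR-99/100 families, 12 lay under 41.4 on every array. Mirlet7f-1 had 35.9 in Chd4-knockdown, 40.8 in Mbd3-knockdown and 55.2 in control cells at day 4, and 22.2, 29.7 and 25.9 in the same lines at day 0. With dim values set to 41.4 its day difference in control cells was at least 0.41 in log2. Mirlet7a-1 had 50.3 in Chd4-knockdown, 53.2 in Mbd3-knockdown and 57.1 in control cells at day 4, against 56.6, 59.1 and 58.2 at day 0. Of these 17 microRNA genes, 4 were compared between the days in control cells, Mir99b among them. As measured 1 was past 2-fold upward, Mirlet7f-1, which is not past it with the floor, beside 8.13% of all genes compared.

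Genes that make microRNAs, and genes that act with LIN28 on let-7 precursors, were set beside the members. Of 11 microRNA processing genes compared between the days in control cells, 2 passed 2-fold upward and 0 downward, and the median was 0.06, beside 8.13% upward and a median of 0.0027 over all genes compared. They were Prkra, the Dicer partner PACT, with a log2 difference of at least 1.72, and the Argonaute gene Ago1, at 1.09. Prkra was also the 1 gene of the list at least 2-fold lower than control at day 4 in each knockdown, at -1.16 in Chd4-knockdown and -1.08 in Mbd3-knockdown cells. In the same lines 6.64% and 4.89% of all genes compared were 2-fold lower. At day 0 the list had 0 genes past 2-fold in either knockdown, beside 0.565% and 0.314% of all genes downward. None of 6 genes of let-7 precursor tailing and decay passed 2-fold between the days or between knockdown and control. Among these, chosen after their values were seen, the uridylyl transferase Tut4, which LIN28A recruits, had a day difference of 0.93 in control cells, and the exonuclease Dis3l2, which degrades tailed precursors, had 0.84. The medians of these 6 genes lay between -0.08 and 0.07 in all 9 comparisons.

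Genes known as let-7 targets, other than the members, were set beside the members. Of 17 such genes, 6 passed 2-fold upward and 1 downward between the days in control cells, and the median was 0.73. Of all 13831 genes compared, 8.13% passed upward and 650 genes downward, with a median of 0.0027. Prtg, a receptor of the early neural epithelium, was higher by 3.09, the G1 cyclin gene Ccnd2 by 2.60, the IGF receptor gene Igf1r by 1.55, the zinc-finger gene Plagl2 by 1.52, the TGF-beta receptor gene Tgfbr1 by 1.42 and the insulin receptor gene Insr by 1.04 on the log2 scale. Myc, the growth-promoting transcription factor, was the 1 lower gene, at -1.64. In Chd4-knockdown and in Mbd3-knockdown cells 2 of the 17 passed upward, beside 1.7% and 1.6% of all genes compared. They were Prtg at 3.19 and 1.90 and Ccnd2 at 1.29 and 1.57, and the list median was 0.39 in both. Prtg thus differed between the days in Chd4-knockdown cells by as much as in control cells, which Lin28b, Igf2bp3 and Hmga2 did not. Its low day 0 value in Chd4-knockdown cells, 89.3 against 205 in control cells, enters that difference. At day 4 Prtg was still below control there, at 818 against 1742.

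At day 4, 9 of the 17 let-7 targets were at least 2-fold lower than control in Chd4-knockdown cells and 3 in Mbd3-knockdown cells, with medians of -1.01 and -0.26 and 0 genes higher. Over all genes compared, 6.64% and 4.89% were lower, and 697 of 13733 and 468 of 13588 were higher. Ccnd2 had 119 in Chd4-knockdown, 180 in Mbd3-knockdown and 1858 in control cells, which are log2 differences of -3.97 and -3.37. Ccnd1, the other G1 cyclin of the list, was at -1.82 in Chd4-knockdown and -1.60 in Mbd3-knockdown cells. Tgfbr1 was at -1.50 and -1.30, Irs2, an insulin receptor substrate, at -1.33 and -0.67, Prtg at -1.09 and -0.61, and the kinase gene Cdk6 at -1.07 and -0.26 in the same lines. At day 0, 5 of the 17 were at least 2-fold lower in Chd4-knockdown cells and 3 in Mbd3-knockdown cells. The shares over all genes compared were 0.565% and 0.314%. Ccnd2 was at -2.66 in Chd4-knockdown and -2.34 in Mbd3-knockdown cells, Ccnd1 at -1.66 and -1.15, and Myc at -1.48 and -1.68. Unlike the members, these 3 genes were thus past 2-fold in both knockdowns of ESCs already. Cdk6 at -1.48 and Prtg at -1.20 passed in Chd4-knockdown cells, and their Mbd3-knockdown values were -0.40 and 0.58. The day 0 medians of the list were -0.21 and -0.03.

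IGF signaling genes were listed because Igf2 mRNA gave the IMP family its name. Of 11 genes, 5 passed 2-fold upward between the days in control cells and 0 downward, and the median was 0.98. Among all 13831 genes compared, 8.13% passed upward and 650 genes downward. The binding protein gene Igfbp5 had a log2 difference of at least 2.76 and was followed by Igfbp4 at 2.23, Irs1 at 1.76, and Igf1r and Insr at the values given above. In Chd4-knockdown cells 0 of the 11 passed between the days and the median was -0.09. In Mbd3-knockdown cells 2 passed, Igf2 at 1.88 and Igfbp5 at at least 1.13, with a median of 0.28. Among all genes compared, 1.7% and 1.6% passed upward in these 2 lines. Against control at day 4, 6 of the 11 were at least 2-fold lower in Chd4-knockdown cells and 3 in Mbd3-knockdown cells, with medians of -1.01 and -0.67. The shares over all genes compared were 6.64% and 4.89%. Igfbp5 had 44.1 in Chd4-knockdown, 90.5 in Mbd3-knockdown and 281 in control cells. Igfbp5 was at -2.67 and -1.63, Irs1 at -1.76 and -1.54 and Igfbp4 at -1.68 and -1.30, followed in Chd4-knockdown cells by Irs2 at -1.33, Igf1r at -1.03 and Insr at -1.01. At day 0 none of the 10 genes compared passed 2-fold in either knockdown, with medians of 0.03 and -0.02. Downward, 0.565% and 0.314% of all genes compared did.

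Igf2 itself, the growth factor whose mRNA is bound by IMP proteins, did not follow Igf2bp3. It had 206 in Chd4-knockdown, 596 in Mbd3-knockdown and 269 in control cells at day 4, and 147 in Chd4-knockdown, 162 in Mbd3-knockdown and 174 in control cells at day 0. Its highest array was the Mbd3 knockdown at day 4, where it was 1.15 above control on the log2 scale. Of 7 RNAs known to be bound by IMP proteins that entered the comparisons at day 4, 1 was at least 2-fold lower in Chd4-knockdown cells, Igf1r, and 1 at least 2-fold higher in Mbd3-knockdown cells, Igf2. Their medians against control at day 4 were 0.17 and 0.19. Among all genes compared, 6.64% were lower in Chd4-knockdown cells and 468 of 13588 higher in Mbd3-knockdown cells. At day 0 Myc was the 1 gene of this list past 2-fold in each knockdown, and the medians were 0.08 and -0.20. Downward, 0.565% and 0.314% of all genes compared passed. Between the days in control cells Igf1r was higher and Myc lower, with a median of 0.11. Among all 13831 genes compared there, 8.13% were 2-fold higher and 650 genes 2-fold lower.

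The mRNAs known to be repressed by TRIM71 were set beside Trim71. In Chd4-knockdown and Mbd3-knockdown cells 6.64% and 4.89% of all genes compared were 2-fold lower at day 4, and 0.565% and 0.314% at day 0. Of 7 such mRNAs compared, 0 passed 2-fold in either knockdown at either day. Their medians against control were -0.06 in Chd4-knockdown and 0.16 in Mbd3-knockdown cells at day 4, and 0.20 and 0.43 at day 0. Egr1, an immediate early transcription factor, was the 1 gene past 2-fold between the days, at -1.21 in Chd4-knockdown, -2.02 in Mbd3-knockdown and -2.61 in control cells. Among all genes compared, 155 of 13406, 147 of 13348 and 650 of 13831 were 2-fold lower in the same order of lines. The list median between the days was -0.23 in Chd4-knockdown, -0.15 in Mbd3-knockdown and -0.03 in control cells. At day 4, 4 of the 7 lay below control in Chd4-knockdown and 3 in Mbd3-knockdown cells, Rbl1 the lowest at -0.84 and -0.86. At day 0, 2 and 1 lay below it. The cell cycle inhibitor gene Cdkn1a, chosen after its values were seen, was above control in all 4 knockdown arrays. It was higher by 0.69 in Chd4-knockdown and 0.61 in Mbd3-knockdown cells at day 4 and by 0.77 and 0.60 at day 0. Trim71 was above control on 3 of those 4 arrays, by 0.09 in Chd4-knockdown cells at day 0, and below it in the Mbd3 knockdown at day 0. A link between Trim71 and this list was not tested.

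Other chromatin proteins with an HMG box or of the HMGN family did not show the size of difference seen in Hmga2. Of 10 genes compared between the days in control cells 1 passed 2-fold upward, Hmgb3, at 1.42, with a list median of 0.15. That is near the 8.13% of all genes compared that passed. At day 4, 2 of 9 were at least 2-fold lower in Chd4-knockdown cells, Hmgn5 at -1.18 and Hmgb3 at -1.12, and 0 in Mbd3-knockdown cells, where the same genes were at -0.04 and -0.60. The list medians were -0.23 and -0.16, and 6.64% and 4.89% of all genes compared were 2-fold lower. At day 0 Hmgn5 was the 1 gene of 10 past 2-fold in Chd4-knockdown cells, with a log2 difference of -1.41 or below, and 0 passed in Mbd3-knockdown cells, with medians of -0.08 and -0.09. Downward, 0.565% and 0.314% of all genes compared passed.

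Of 8 other oncofetal genes compared, 4 passed 2-fold upward between the days in control cells and 0 downward, and the median was 0.83. Among all 13831 genes compared, 8.13% passed upward and 650 genes downward. The 4 oncofetal genes were Dlk1, a Notch-like imprinted gene, at 1.65, the imprinted gene Mest at 1.40, the glypican gene Gpc3 at 1.02 and the trophoblast glycoprotein gene Tpbg at 1.02. In Chd4-knockdown cells 0 passed, with a median of -0.19, and in Mbd3-knockdown cells Igf2 passed, with a median of 0.18. Among all genes compared, 1.7% and 1.6% passed upward in these 2 lines. Against control at day 4, 3 were at least 2-fold lower in both knockdowns, beside 6.64% and 4.89% of all genes compared. These 3 were Dlk1 at -2.14 in Chd4-knockdown and -1.89 in Mbd3-knockdown cells, Gpc3 at -1.75 and -1.62, and Mest at -1.18 and -1.03. Dlk1 had 45.8 in Chd4-knockdown, 54.2 in Mbd3-knockdown and 201 in control cells. The medians were -0.83 and -0.54. At day 0 none passed in either knockdown, with medians of -0.19 and -0.15. Downward, 0.565% and 0.314% of all genes compared passed. In the Chd4 knockdown Dlk1, Gpc3 and Mest, like Lin28b, Igf2bp3 and Hmga2, were thus past 2-fold below control at day 4 and not at day 0, a likeness that was not tested.

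**Figure D4:**
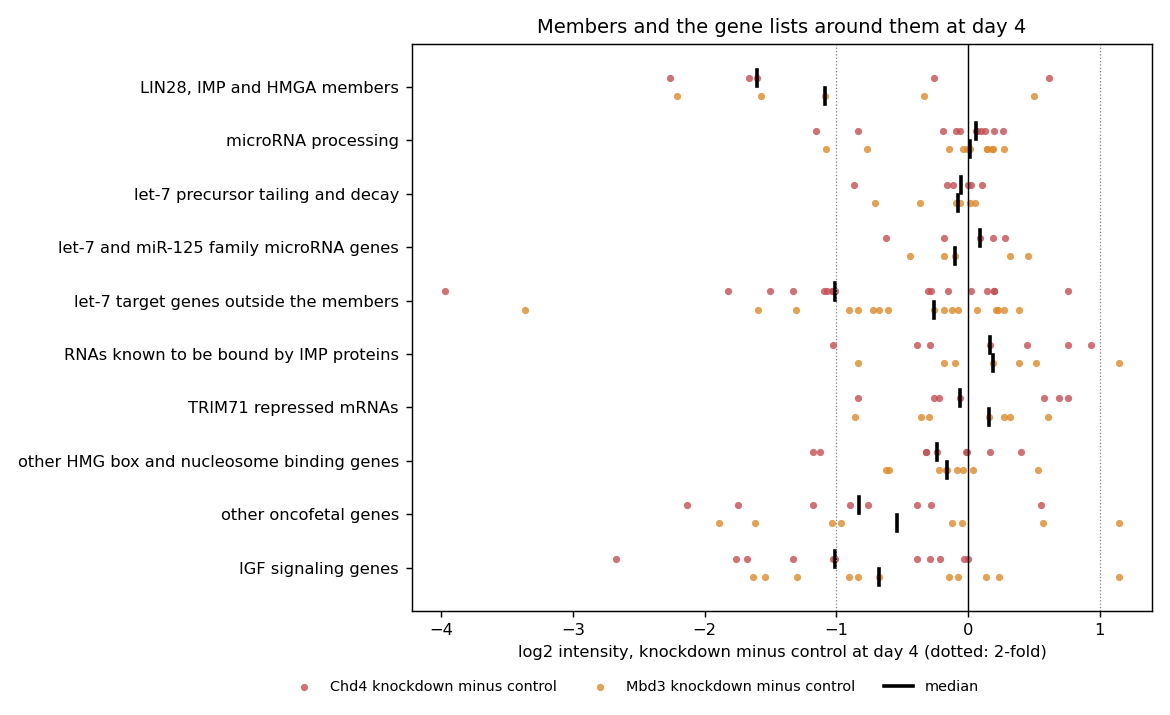
Log2 intensity of knockdown minus control at day 4 for the members and for the genes of 9 lists, with 1 point per gene compared, Chd4 knockdown above Mbd3 knockdown in each list, black ticks at the medians and dotted lines at 2-fold. The medians of the members are -1.60 and -1.08, those of the IGF signaling genes -1.01 and -0.67, and those of the microRNA processing genes 0.06 and 0.02.

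Markers of other cell types were read on the same arrays. At day 0 the 10 postmitotic neuron markers summed to 3143 in Chd4-knockdown, 2443 in Mbd3-knockdown and 3591 in control cells. At day 4 they summed to 2636, 2382 and 4985, so both knockdown sums lay below the control sum of day 0. Above 41.4 on every array were 6 of the 10. At day 4, 8 of 10 were at least 2-fold lower than control in each knockdown, beside 6.64% and 4.89% of all genes compared. The 10 fibroblast or feeder markers summed to 1078, 843 and 2618 in the same lines, mostly Vim, which progenitors also express, at 650, 458 and 2186. Besides Vim, Col1a1, Col1a2, Thy1 and Pdgfrb lay above 41.4 on every array, with values up to 116, while Col3a1, Dcn, Lum and Postn lay under 41.4 on every array. Of 8 endoderm markers summed to 644, 655 and 1245, Cxcr4, which neural cells also express, made up 123, 162 and 802. Dab2 had 236, 219 and 137, higher in the knockdowns than in control cells. Cxcr4, Dab2, Foxa2 and Gata4 lay above 41.4 on every array and Afp under it on every array. The 7 mesoderm markers summed to 355, 324 and 315, and the 7 trophoblast markers to 472, 610 and 356. Of these, 3 mesoderm and 4 trophoblast markers lay above 41.4 on every array. Of the marker lists, then, those with their highest sum in control cells at day 4 were the neural lists and 2 lists whose sum there was mostly 1 gene that neural cells also express. Among the gene lists above, the sums of let-7 targets, IGF signaling, other oncofetal, HMG and let-7 precursor tailing genes were also highest there. Those of the other gene lists were not. The part of any of these lists in the members' values was not tested.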

How the data were processed

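Total RNA of 6 groups of mouse embryonic stem cells, 1 sample each, was hybridized to Mouse Gene 2.0 ST arrays. Per the series design text the authors used GeneSpring GX 12.6.1, and the submitters' processing notes name RMA with no version. The authors deposited linear intensities, which ran from 17.4 to 7980. RMA makes array distributions equal, so a shift of all genes would not be seen. The array's genome build was not given in the sources used here.

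Of 34351 probe sets, 23521 carried 1 symbol, 1814 several and 9016 none. Gene names came only from probe sets with 1 symbol, updated through RefSeq GRCm38.p6, which held 23328 of their gene IDs. For the 1082 genes with more than 1 probe set, the one with the highest mean log2 value was used. Log2 of the intensity was taken with no further scaling. All 5 members matched a RefSeq promoter.

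The members and the 9 gene lists and 7 marker lists were chosen with earlier results of these data known, and some genes stand in more than 1 list; the floor of 41.4 was chosen after seeing the data. Named genes are the members, the list genes past 2-fold in a comparison (up to 6 in each direction) and the nearest profiles: 5 for Lin28b, and 3 for each other member spanning 1 or more on the log2 scale. With 1 array per group no test was run, and whether a sample was 1 culture or a pool is not given. Counting of differences was tested on simulated data. Alternatives were 16 subtracted, dim values set to 41.4, centred arrays, the mean over probe sets, 1.5-fold, no filter, and the mean absolute difference for nearest genes. Python 3.11.15, numpy 2.4.6, pandas 2.3.3 and matplotlib 3.10.9 were used.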

Additional observations from a re-analysis of the deposited data

Results flagged for a closer look

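Over the 5 members, 30 pairs of differences between lines or days were checked, and 5 pairs pointed in opposite directions, 3 of them of Trim71. Its day difference was 0.16 in Mbd3-knockdown and -0.80 in control cells, which are 0.96 apart on the log2 scale. It was -0.27 in Chd4-knockdown and 0.16 in Mbd3-knockdown cells, -0.43 apart. The Mbd3 knockdown was 0.50 above control at day 4 and -0.46 from it at day 0, again 0.96 apart, since this rests on the same 4 arrays as the first pair. In the other 2 pairs the difference of Chd4-knockdown minus Mbd3-knockdown cells changed sign. For Igf2bp3 it was -0.09 at day 4 and 0.68 at day 0, which are -0.76 apart, and for Hmga2 -0.06 and 0.06, which are -0.12 apart. With 1 array in each group, none of these differences was tested.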

How the results depend on the processing

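Of 45 member differences (5 members in 9 comparisons), none changed sign under subtraction of 16, the floor of 41.4, median centring or the mean over probe sets. Under the subtraction 2 moved past 2-fold, and under centring 2 moved below it. Without the filter every count stayed within 1.5 times of its value, as did the counts with the floor, which was added after seeing the data. With 16 subtracted, 1 member in place of 0 passed between the days in Chd4-knockdown cells. Genes past 2-fold then numbered 404 in place of 228 higher between the days in Chd4-knockdown and 381 in place of 213 in Mbd3-knockdown cells, 135 in place of 76 and 84 in place of 42 lower at day 0 in Chd4-knockdown and Mbd3-knockdown cells, 1029 in place of 665 lower at day 4 in Mbd3-knockdown cells, and 295 in place of 140 and 266 in place of 147 between the knockdowns at day 0 and day 4. Centred arrays left 1 member in place of 2 between the days in Mbd3-knockdown cells and 0 in place of 1 lower in them at day 0. At 1.5-fold the members passing between the days were 2 in place of 0 in Chd4-knockdown and 3 in place of 2 in Mbd3-knockdown cells. At day 0, 1 in place of 0 was lower in Chd4-knockdown cells, and 1 in place of 0 differed between the knockdowns. The other member counts were as at 2-fold. Genes past 1.5-fold between the days numbered 832 in Chd4-knockdown, 759 in Mbd3-knockdown and 2394 in control cells. Those lower than control numbered 479 and 273 at day 0 and 2119 and 1792 at day 4, and those between the knockdowns 948 and 601. By mean absolute difference, 4 of the 5 genes nearest to Lin28b and 2 of 3 each for Igf2bp3 and Hmga2 were the same. No paired analysis was possible because, for a block of replicate numbers, the groups share fewer than 2 numbers. The arrays pair by line between the days, and those differences are given line by line; an additive fit of line and day was not run here. Replicates could not be left out for the same reason. Dim signal limits Lin28b in Chd4-knockdown cells at day 0 and most let-7 genes.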

Other observations

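Some genes of the lists differed between the knockdowns by 2-fold or more, and they are named here because they did. Of all genes compared, 1.05% differed by that much at day 0 and 1.1% at day 4. No member did, which at shares this small does not set the members apart from the lists. At day 0 the let-7 target Prtg was at -1.78 and Cdk6 at -1.08 in Chd4-knockdown relative to Mbd3-knockdown cells on the log2 scale, and the nucleosome-binding gene Hmgn5 at -1.75 or below. Btrc, an F-box gene whose mRNA is bound by IMP proteins, was 1.05 higher in Chd4-knockdown cells at day 0 and 1.03 higher at day 4. Its intensity was 434 in Chd4-knockdown, 212 in Mbd3-knockdown and 227 in control cells at day 4. At day 4 Igf2 was at -1.53, Hmgn5 at -1.14 and Igfbp5 at -1.04 in Chd4-knockdown relative to Mbd3-knockdown cells. None of these differences has a replicate check.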
